A study of Mus musculus with 13 samples.

Results

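Whole testis of Wfdc15a knockout (KO) mice was compared with whole testis of wild-type (WT) mice at postnatal day 25, over every gene of the deposited table. The comparison took 5 of the 13 libraries in the series, 3 from KO testis and 2 from WT testis, chosen by the tissue and genotype in their labels. The series also held 1 heterozygous (Het) testis library, whose values are given where they bear on a result, and 7 libraries of sorted round spermatids, which were used in 1 alternative fit only. The stated aim was the function of Wfdc15a in spermatogenesis. All groups shared tissue, age and preparation: testes were freed of the tunica albuginea, RNA was extracted with Isogen, and about 2 ng of total RNA went into Smart-seq2, which copies whole polyadenylated transcripts and keeps no strand. The labels give the genotypes as KO, Hetero and WT and do not describe the KO allele, the strain or a batch. Whether the replicates were different animals is not stated either, and the p-values therefore reflect only how these libraries spread, which may be technical.

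Spermatogenesis takes spermatogonia, the dividing stem and progenitor cells, through meiosis as spermatocytes to haploid round spermatids, which then elongate and pack their DNA with protamines. These germ cells are held by Sertoli cells inside the tubule, and myoid, Leydig, vascular, immune and connective tissue cells lie around it. Wfdc15a is a member of the family with a WAP four-disulfide core, small secreted proteins of which several inhibit proteases or microbes, and the series title links it to proteases and immunity in spermatogenesis.

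The libraries did not group by genotype. Their totals were 7375270, 12745581 and 15792284 reads in KO replicates 1 to 3, against 18438704 and 15785198 reads in WT. Where no read was found, the true level could reach 0.407, 0.235 and 0.190 RPM (the reads of a gene scaled by the total of its library) in the KO libraries and 0.163 and 0.190 RPM in the WT libraries, which is the level of 3 reads and allows for counting error alone. Of 17995 genes tested, KO replicates 2 and 3 differed at least 2-fold on 3.83% and the WT libraries on 16.2%, whereas KO replicate 1 differed on 64.1% and 64.2% from the other KO libraries and on 48.9% and 48.7% from WT. The Het library stood nearest to KO replicates 2 and 3, differing at least 2-fold on 4.46% and 5.41% of genes, and on 63.2% and 62.4% from WT. KO replicate 1 had the fewest reads and no read for 15044 of 30479 listed genes, against 8297 and 7892 in the other KO libraries and 9558 and 10364 in WT. Among 4203 genes at 20 RPM or more in the other 4 libraries, it had no read for 20, while none of the other 4 libraries lacked a gene in the same count. Because KO replicate 1 stood apart from its own group, each library is shown, and results are given with and without it.

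**Figure D1:**
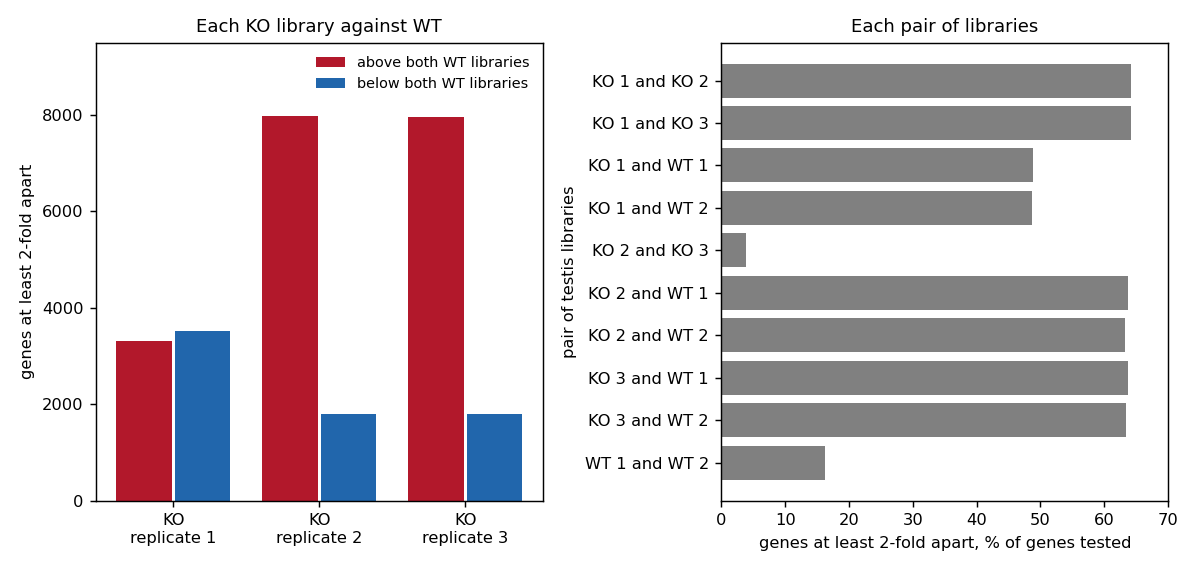
Left, genes at least 2-fold above or below both WT testis libraries in each KO testis library, on log2(RPM + 1). Right, percent of the 17995 tested genes that differ at least 2-fold between each pair of testis libraries. KO replicates 2 and 3 differ on 3.83% of genes, and KO replicate 1 differs on 64.1% and 64.2% from them.

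The tissue label was checked against marker lists of testis cells and of nearby tissues. Summed over 25 Sertoli cell markers, the level was 73.1, 2400.4 and 2636.5 RPM in KO replicates 1 to 3, against 118 and 116 RPM in WT, with Het at 2331 RPM. The Sertoli gene Amh, anti-Müllerian hormone, had no read in KO replicate 1 or in either WT library. The Amh level usual at this age was not checked. Sox9, the transcription factor of Sertoli fate and a gene named after its values were seen, had no read in KO replicate 1. In WT, Sox9 was at most at 0.760 RPM. Germ cell markers such as Sycp1 and Sycp3 had reads in every library, but others did not. Dmc1, Tex11 and Stra8, named after their values were seen, had no read in KO replicate 1. They were at 22.2 to 79.8 RPM in KO replicates 2 and 3, against 1.68 to 3.48 RPM in WT. Epididymis markers summed to at most 5.13 RPM in any of the 5 libraries, and 5 mesothelial markers to 0, 5.57 and 5.83 RPM in KO, against 5.31 and 11.1 RPM in WT.

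In mm10, Wfdc15a spans bases 164198863 to 164200130 of chromosome 2 on the minus strand. It has 3 exons in its longest transcript of 488 bases. Its level was 116, 36.8 and 44.3 RPM in KO replicates 1 to 3, against 212 and 207 RPM in WT, with Het at 48.4 RPM. Every KO library was below both WT libraries, KO replicate 1 least so, and the Het library lay between KO replicates 3 and 1. KO averaged 65.8 ± 43.8 RPM (SD, n = 3) and WT 209.8 ± 3.69 RPM (SD, n = 2). On log2(RPM + 1) KO lay -1.85 from WT (SE 0.54, limma adjusted p = 0.115), which missed the threshold of 0.05. The exact two-sided permutation p, taken as double the smaller tail, was 0.2. That is the smallest this form of the test can give with 3 against 2 libraries. Leaving KO replicate 1 out, the difference was -2.35 (SE 0.17, limma adjusted p = 8.7e-05). All KO libraries thus held reads of the gene, and what those reads say of the allele cannot be told from counts per gene.

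The series title calls Wfdc15a a non-canonical bivalent gene, a term for promoters that carry both activating and silencing histone marks. Its promoter is shown for that reason, beside that of Wfdc3, another WFDC gene with lower values in all 3 KO libraries. Capitals mark CpG, the dinucleotide that carries DNA methylation. The sequences are the 250 bases upstream of the RefSeq start (GRCm38.p6), Wfdc15a at chr2:164200118-164200367 and Wfdc3 at chr2:164743268-164743517, both read 5′ to 3′ on the minus strand.
Wfdc15a: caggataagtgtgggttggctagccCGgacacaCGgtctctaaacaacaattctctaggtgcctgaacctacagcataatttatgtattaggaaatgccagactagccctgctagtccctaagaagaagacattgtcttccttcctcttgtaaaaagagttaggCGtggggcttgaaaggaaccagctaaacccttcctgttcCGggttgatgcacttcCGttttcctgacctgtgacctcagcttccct
Wfdc3: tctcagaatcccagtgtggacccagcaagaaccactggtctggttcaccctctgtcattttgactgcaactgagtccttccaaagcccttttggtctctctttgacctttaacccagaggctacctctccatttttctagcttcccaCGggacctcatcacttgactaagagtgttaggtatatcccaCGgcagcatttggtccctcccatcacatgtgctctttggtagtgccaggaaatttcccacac
The first holds 5 CpG and the second 2, where the median of 32851 promoters of the same length is 6. As few CpG or fewer were held by 49.6% and 29.0% of all promoters. The motif TGACG, searched on both strands, was in neither window and in 17.8% of all promoters. The Wfdc15a window reaches into its gene's span in the deposited table. The Wfdc3 window lies wholly within its gene's span there, 164731180 to 164745931. No chromatin data were analysed here.

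Over all genes, no gene passed the test. Limma called 0 of 17995 genes in the direction of higher KO values (0% of those tested) and 0 in the direction of lower values (0%), with a smallest adjusted p of 0.0689, which many genes shared. At an unadjusted p under 0.05 there were 4379 genes, 3167 of them higher and 1212 lower in KO, voom on recovered reads called 0, and a fit with library quality weights called 12496, giving KO replicate 1 a weight of 0.055 against 1.21 to 3.91 for the others. Without KO replicate 1, 9430 genes rose (53.1% of 17764 tested) and 2612 fell (14.7%) in KO. In that comparison, genotype cannot be told apart from whatever else sets KO replicates 2 and 3, and the Het library beside them, apart from WT. The median of all genes was +0.66 in KO minus WT, and it was -0.13, +1.02 and +1.01 in KO replicates 1 to 3 taken alone. Higher and lower values on this scale are therefore to be read against +0.66, and the median moved to -0.29 with centred libraries and +0.03 with quantile normalization.

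Genes on which the groups did not overlap show what the 3 KO libraries had in common. All 3 KO libraries were above both WT libraries on 5192 genes (28.9%) and below both on 2584 genes (14.4%). With a gap of at least 1 log2 unit between the groups there were 2065 genes higher (11.5%) and 531 lower (2.95%). Higher genes made up 66.8% of those that did not overlap, 34.6% with centred libraries and 49.1% with quantile normalization, so the balance of the directions rests on the scaling. Taken library by library, KO replicate 1 was at least 2-fold above both WT libraries on 3307 genes and below both on 3513, KO replicate 2 on 7981 and 1791, and KO replicate 3 on 7949 and 1810.

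Named next are the 10 genes with the widest gap in each direction, leaving out predicted genes and genes under 10 RPM. They were picked for that gap, so their values describe and do not test. The widest gap with higher KO values belonged to Adgb, androglobin, a globin of the testis and sperm tail, at 47.3, 90.9 and 83.5 RPM in KO replicates 1 to 3, against 0.217 and 1.52 RPM in WT. The difference, KO minus WT, came to +5.36 (SE 0.63, limma adjusted p = 0.0689) and the Het library was at 92.8 RPM. P3h1, which hydroxylates proline in collagen, was at 18.2, 32.9 and 21.9 RPM in KO and had no read in either WT library. Its lowest KO library was at least 95.6-fold higher than the level of 3 reads per library in WT. Leprot, an endosomal membrane protein, was nearly level across KO, at 18.0, 18.0 and 17.8 RPM, against 0.108 RPM and no read in WT.

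Matrix and signalling genes were among them. Dcn, the matrix proteoglycan decorin, was at 72.9, 146 and 166 RPM in KO, against 2.39 and 3.29 RPM in WT. Ltbp4, a matrix protein that binds latent TGF-beta, was at 34.3, 55.3 and 61.9 RPM in KO, against 1.25 and 1.14 RPM in WT. Both were lowest in KO replicate 1 among the KO libraries, and the groups stood far apart in each. The complement component C2 was at 22.1, 36.8 and 34.2 RPM in KO, against 0.434 and 0.127 RPM in WT, but its span overlaps Gm20547 and Zbtb12 and the reads carry no strand.

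Several others act in the nucleus. Malat1, a long noncoding RNA of nuclear speckles, was at 188, 163 and 157 RPM in KO, against 6.35 and 8.30 RPM in WT, with KO minus WT of +4.36 (SE 0.37, limma adjusted p = 0.0689). Kcnq1ot1, an imprinted RNA transcribed through Kcnq1 from the other strand, was at 32.8, 27.9 and 21.5 RPM in KO, against 0.380 and 0.0634 RPM in WT. Without strand, its reads cannot be told apart from those of Kcnq1. Malat1 and Kcnq1ot1 were highest in KO replicate 1, the reverse of the order seen for Dcn. Atad2, a bromodomain ATPase on chromatin, was at 28.6, 65.8 and 77.8 RPM in KO, against 0.759 and 0.507 RPM in WT. Phc3, a subunit of the Polycomb repressive complex PRC1, was at 35.7, 32.7 and 28.2 RPM in KO, against 1.08 RPM and no read in WT. The choice by gap in these same libraries left little room for another result without KO replicate 1. All 10 of the genes named as higher rose there, which is no further test. The Het library was above both WT libraries on each of them, at 17.1 RPM for Leprot and 155 RPM for Malat1.

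The widest gap with lower KO values belonged to Nudt16l2, at no read, 0.157 and 0.127 RPM in KO replicates 1 to 3, against 29.0 and 10.7 RPM in WT. Prss58, a trypsin-like serine protease, had no read in KO replicate 1 and was at 5.02 and 5.07 RPM in KO replicates 2 and 3, against 91.1 and 50.8 RPM in WT. KO minus WT of Prss58 was -4.38 (SE 0.99, limma adjusted p = 0.0776). Both genes were clear of the WT range in every KO library. Cntn1, a neural adhesion protein, had no read in KO replicate 1 and was at 0.785 and 0.760 RPM in the other KO libraries, against 19.5 and 11.8 RPM in WT. Misp3, Ttc24 and Tmem239 likewise had no read in KO replicate 1 and stayed at 2.03 RPM or less in the other KO libraries, against 10.01 to 36.3 RPM in WT.

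Genes of late male germ cells were in this group. Tex37, a testis-expressed gene, was at 2.44, 1.80 and 1.39 RPM in KO, against 49.9 and 20.9 RPM in WT. Tppp2, a tubulin-binding protein of sperm, was at 4.07, 3.22 and 3.93 RPM in KO, against 47.6 and 26.4 RPM in WT. H2ap, an X-linked relative of histone H2A, was at 2.85, 2.04 and 1.77 RPM in KO, against 36.7 and 18.2 RPM in WT. WT replicate 1 was the higher WT library in each, and every KO value lay below the lower WT value. Cd3d, a subunit of the T cell receptor complex, was at 0.949, 2.35 and 3.99 RPM in KO, against 29.1 and 24.3 RPM in WT. All 10 of the genes named as lower fell without KO replicate 1, which is likewise no further test, since the same libraries picked them. The Het library was below both WT libraries on each, at 1.25 RPM for Nudt16l2 and 10.3 RPM for Prss58.

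**Figure D2:**
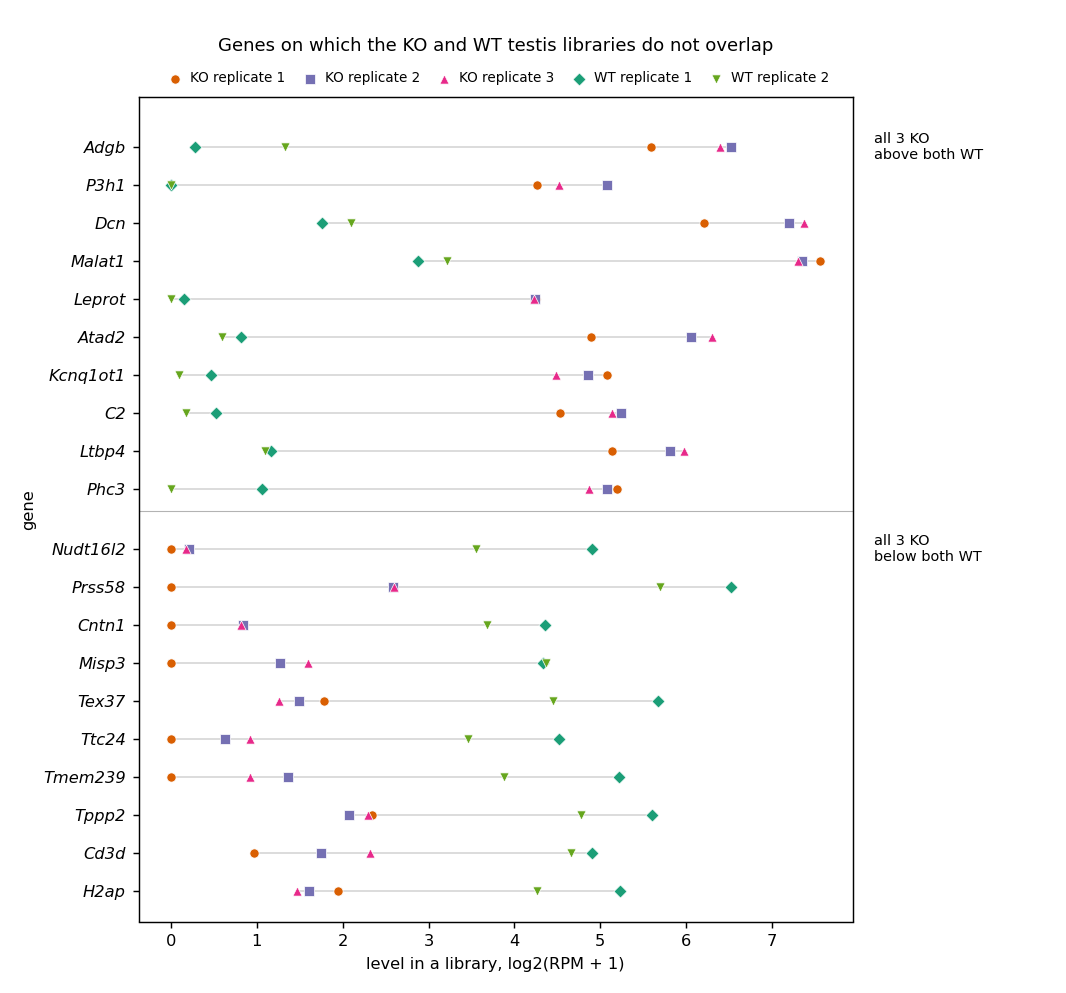
Level of each named gene in the 3 KO and 2 WT testis libraries, on log2(RPM + 1), for the 10 genes with the widest gap in each direction. Each symbol is 1 library. In the upper block all KO symbols lie right of both WT symbols, and in the lower block all lie left of them.

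The KO libraries disagreed on many other genes, and the genes with the widest disagreement show its kind. Clu, clusterin of Sertoli cells, was at 2.44, 1159 and 1204 RPM in KO replicates 1 to 3, against 16.3 and 17.5 RPM in WT. KO replicate 1 was thus below WT and the other KO libraries far above it, with the Het library at 1149 RPM. Ctsl, a lysosomal protease that Sertoli cells also make, was at 1.76, 502 and 556 RPM in KO, against 11.3 and 11.8 RPM in WT. The X-linked cytoplasmic deacetylase Hdac6 had no read in KO replicate 1 and was at 126 and 137 RPM in the other KO libraries, against 2.01 and 1.65 RPM in WT. Uba1y, a Y-linked ubiquitin-activating enzyme, had no read in KO replicate 1 or in WT and was at 57.9 and 59.6 RPM in KO replicates 2 and 3. Frzb, a secreted Wnt antagonist, was at 52.5 and 44.0 RPM there, and at 0.108 RPM or less in the remaining libraries.

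The opposite pattern, KO replicate 1 at the WT level and the other KO libraries lower, was widest for the genes given next. Mt1, a metallothionein, was at 1395, 169 and 163 RPM in KO, against 1452 and 1265 RPM in WT. Zfp423, a zinc finger transcription factor, was at 138, 14.8 and 15.6 RPM in KO, against 152 and 179.6 RPM in WT. Polr2i, a subunit of RNA polymerase II that overlaps Tbcb, was at 293, 40.2 and 38.6 RPM in KO, against 315 and 289 RPM in WT. In each of these the Het library lay with KO replicates 2 and 3, at 140 RPM for Mt1. Elob, Riiad1 and the X-linked histone variant H2al3 showed the same pattern, and the first 2 of these overlap another gene.

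KO replicate 1 stood apart from the other 4 libraries on a further set. Trim30a was at 3927, 35.7 and 38.2 RPM in KO, against 56.5 and 166 RPM in WT, and its neighbour Trim30c was at 89.9, 0.392 and 0.697 RPM in KO, against 0.814 and 1.96 RPM in WT. These belong to a cluster of near-identical genes, so their separate levels are uncertain. Lars2, the mitochondrial leucyl-tRNA synthetase, was at 2385, 178 and 182 RPM in KO, against 149 and 186 RPM in WT. Tesk1, a testis kinase whose span overlaps Cd72, was at 317, 30.7 and 23.8 RPM in KO, against 24.0 and 26.8 RPM in WT. In the other direction, Dcaf13, a ribosome biogenesis factor, had no read in KO replicate 1 and was at 69.6 and 60.5 RPM in the other KO libraries, against 48.9 and 33.9 RPM in WT. Med6, of the Mediator complex, and Prkag1, of the AMP-activated kinase, also had no read in KO replicate 1, against 33.1 RPM or more in both WT libraries. Dync2li1, of the ciliary dynein, was at 0.542, 92.8 and 88.5 RPM in KO, against 51.5 and 63.2 RPM in WT. The spans of Uba1y, Ctsl, Med6, Prkag1 and Gstm5 each overlap 1 other annotated gene, so their levels are less certain.

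**Figure D3:**
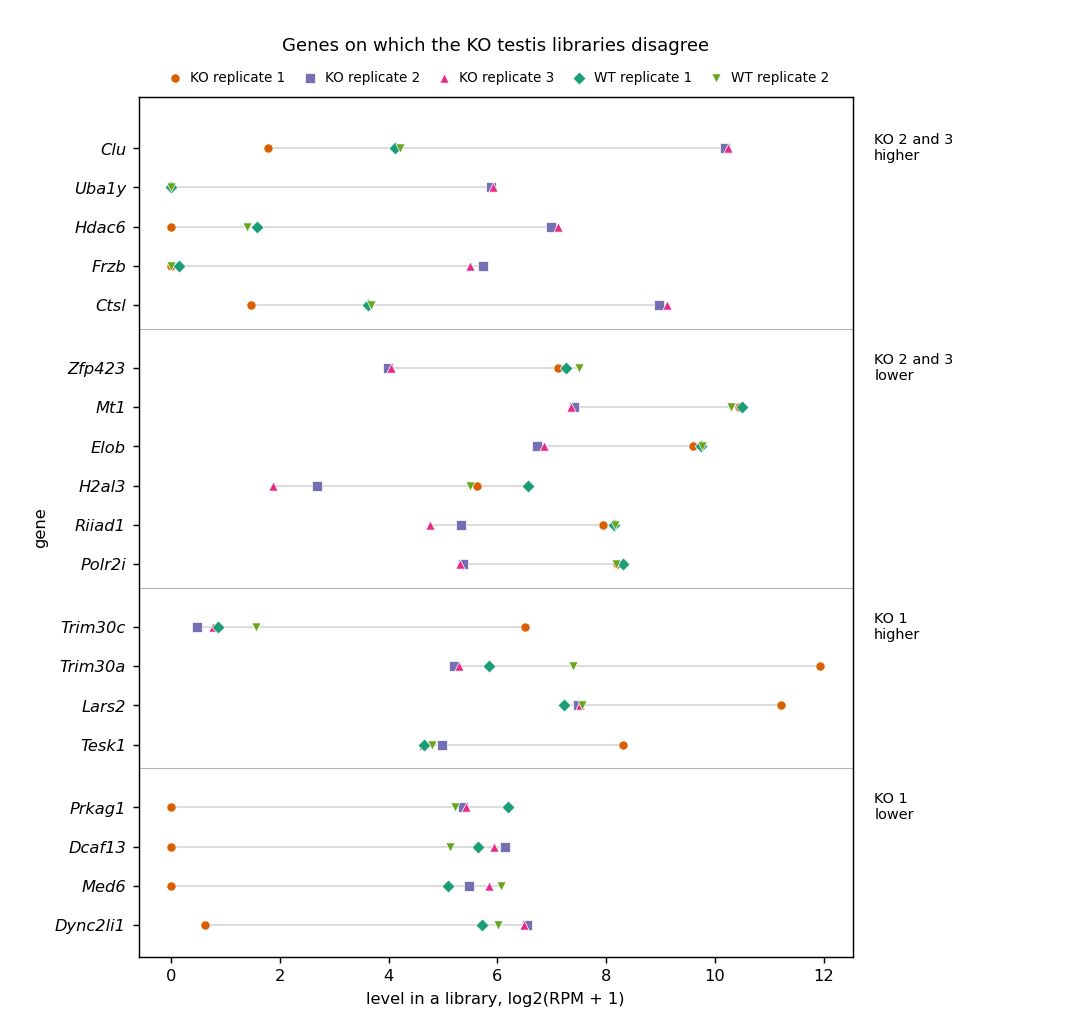
Level of each gene in the 3 KO and 2 WT testis libraries, on log2(RPM + 1), for genes on which KO replicates 2 and 3 left the WT range and KO replicate 1 did not, or the reverse. Each symbol is 1 library. In the upper blocks KO replicate 1 lies with the WT symbols or beyond them, away from KO replicates 2 and 3.

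Among the most abundant transcripts were germ cell genes with lower KO values. Ldhc, the germ cell form of lactate dehydrogenase, was the most abundant gene in every library but was at 6296, 5521 and 5476 RPM in KO, against 18006 and 15991 RPM in WT. Gstm5, a glutathione transferase of testis, was at 5294, 1667 and 1749.7 RPM in KO, against 11491 and 11744 RPM in WT. Meig1, needed for spermiogenesis, was at 6077, 986 and 959 RPM in KO, against 8980.4 and 10443 RPM in WT. Ldhc was nearly the same in all KO libraries, whereas Gstm5 and Meig1 were far higher in KO replicate 1 than in the other KO libraries. The chaperone Hsp90aa1 went the other way, at 2217 to 3792 RPM in KO, against 1097 and 1398 RPM in WT. Reads in the top 10 genes made up 4.45%, 2.999% and 3.08% of KO replicates 1 to 3, against 8.14% and 8.13% in WT.

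Gene lists were read by 3 counts, each beside its value over all genes: members whose groups did not overlap (28.9% higher and 14.4% lower over all genes), members called without KO replicate 1 (53.1% and 14.7%), and the median difference (+0.66). No member of any list was called with all 5 libraries. In bulk tissue, fewer cells of a type and less RNA per cell cannot be told apart. The plot of list medians gives each KO library on its own.

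**Figure D4:**
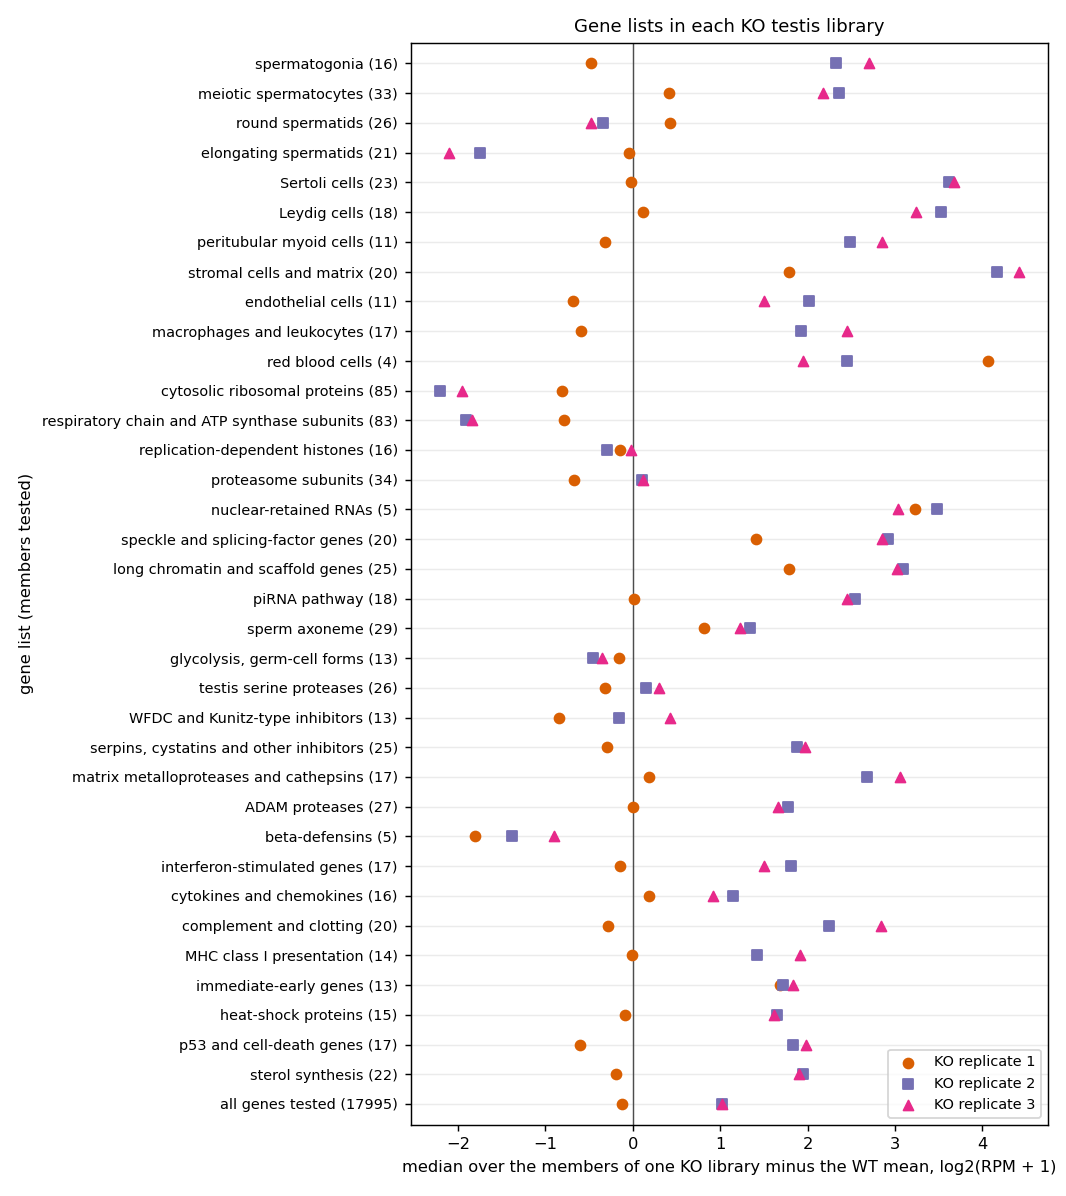
Median over the tested members of each gene list of 1 KO testis library minus the WT mean, on log2(RPM + 1), with the number of members tested in parentheses. The lowest row gives all genes tested. KO replicates 2 and 3 lie near each other on most lists, and KO replicate 1 lies nearer to 0 than both on the Sertoli, Leydig, myoid, stromal, endothelial and macrophage lists and farther from 0 on red blood cells.

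In KO replicates 2 and 3, the germ cell list medians were above 0 at early stages and below 0 at late ones. In KO replicate 1 they were -0.48, +0.42, +0.43 and -0.04 from spermatogonia to elongating spermatids. Meiotic spermatocyte genes had a median of +1.60 over 33 members, with +0.42, +2.36 and +2.17 in KO replicates 1 to 3. Of these, 16 were above WT in all KO libraries and 1 below, and without KO replicate 1, 27 rose and 2 fell. Sycp1, the transverse filament of the synaptonemal complex, was at 222, 299 and 284 RPM in KO, against 14.9 and 19.96 RPM in WT. Its axial partner Sycp2 was at 303, 641 and 485 RPM in KO, against 47.7 and 73.0 RPM in WT. Meiob, a factor of meiotic recombination, was at 26.6, 89.8 and 91.8 RPM in KO, against 5.21 and 8.62 RPM in WT. The groups did not overlap on these genes, and KO replicate 1 was the lowest KO library on each. Rec8, the meiotic cohesin, was at 34.7 to 48.9 RPM in KO, against 4.01 and 11.4 RPM in WT. Tex15, which acts in meiosis and transposon silencing, was at 26.3 to 87.3 RPM in KO, against 2.55 and 10.96 RPM in WT.

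Spermatogonial genes had a median of +1.47 over 16 members, but -0.48 in KO replicate 1. The receptor Kit was at 0.271, 46.0 and 60.1 RPM in KO, against 0.651 and 1.27 RPM in WT, and Zbtb16, of undifferentiated spermatogonia, was at 0.814, 6.04 and 9.81 RPM in KO, against 0.217 RPM and no read in WT. Sohlh2, a transcription factor of differentiating spermatogonia, was at 5.15, 23.3 and 24.4 RPM in KO, against 0.434 and 1.33 RPM in WT. Of the 16, 4 were above WT in all KO libraries and KO replicate 1 was above the WT mean on 6, whereas 14 rose without it.

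Round spermatid genes had values in both directions, with a median of -0.13 over 26 members (+0.43, -0.35 and -0.48 in KO replicates 1 to 3), 7 higher and 7 lower without overlap. The acrosomal genes Acrv1, Spaca1 and Acr had higher KO values: Acrv1 was at 162, 129.5 and 126 RPM in KO, against 74.4 and 60.5 RPM in WT, and Spaca1 at 90.3, 184 and 147 RPM in KO, against 37.1 and 36.4 RPM in WT. Gk2, a testis glycerol kinase, was at 861, 729.8 and 747 RPM in KO, against 1729 and 1759.6 RPM in WT, and Zpbp2, a zona pellucida binding protein, was at 739, 547 and 543 RPM in KO, against 985 and 1002 RPM in WT. Without KO replicate 1, 7 members rose and 11 fell. The list stood at -0.79 once the all-gene median was subtracted, and its median crossed 0 when KO replicate 2 (+0.02), KO replicate 3 (+0.03) or WT replicate 1 (+0.06) was left out.

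Elongating spermatid genes had a median of -1.36 over 21 members, with -0.04, -1.75 and -2.10 in KO replicates 1 to 3. Their summed level was 10129, 2289 and 1941 RPM in KO, against 15915 and 13908 RPM in WT, with Het at 1954 RPM. The protamine Prm2 was at 249.9, 57.6 and 30.01 RPM in KO, against 1299 and 461 RPM in WT, and the transition protein Tnp1 at 194, 26.6 and 18.2 RPM in KO, against 905 and 447 RPM in WT. Fscn3, a testis fascin, was at 2.03, 10.04 and 3.61 RPM in KO, against 84.3 and 41.0 RPM in WT. These KO libraries were all below WT, with KO replicate 1 in between for Prm2 and Tnp1 and lowest for Fscn3. Of the list, 7 were lower and 3 higher without overlap, and 12 fell and 1 rose without KO replicate 1. The median of the members' longest transcripts was 1126 bases, against 2913 bases over all genes.

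Somatic cell lists were high in KO replicates 2 and 3 and not in KO replicate 1, except for connective tissue and red blood cell genes. Sertoli cell genes had a median of +2.34 over 23 tested members, and -0.02, +3.61 and +3.67 in KO replicates 1 to 3. Without KO replicate 1 all 23 rose and none fell, and with it 8 were above WT in all KO libraries. Wt1, a transcription factor of Sertoli cells, was at 5.56, 52.3 and 52.4 RPM in KO, against 0.217 and 1.65 RPM in WT. The intermediate filament gene Vim was at 25.9, 124 and 155 RPM in KO, against 6.40 and 10.4 RPM in WT. Leydig cell genes had a median of +2.11 over 18 members, and +0.11 in KO replicate 1. Star, which brings cholesterol into mitochondria, was at 2.58, 41.1 and 25.8 RPM in KO, against 1.68 and 2.28 RPM in WT. Insl3, a peptide hormone of Leydig cells, was at 88.7, 77.4 and 45.0 RPM in KO, against 18.4 and 13.2 RPM in WT, and was highest in KO replicate 1, but its span overlaps Jak3. Fdx1, the ferredoxin of steroid synthesis, was one of 2 members below WT in all KO libraries, at 44.2, 62.4 and 65.3 RPM in KO, against 164 and 154 RPM in WT.

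Connective tissue and matrix genes had the highest median of the lists with 10 or more tested members, +3.35 over 20, and were high in each KO library, at +1.78, +4.17 and +4.42. Of the 20 members, 17 were above WT in all KO libraries and none below, and all 20 rose without KO replicate 1. Their summed level was 437, 1707 and 2364 RPM in KO, against 91.1 and 106 RPM in WT, with Het at 1684 RPM. Col3a1, a fibrillar collagen, was at 41.8, 273 and 499 RPM in KO, against 2.71 and 1.14 RPM in WT. Col1a2 was at 69.0, 182 and 301 RPM in KO, against 5.42 and 4.56 RPM in WT. Gsn, the actin-severing protein gelsolin, was at 46.4, 84.3 and 104 RPM in KO, against 3.96 and 3.17 RPM in WT. The members' longest transcripts had a median of 5130 bases.

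Myoid, endothelial and macrophage lists had medians of +1.61 over 11, +1.20 over 11 and +1.34 over 17 members, and all 3 were below 0 in KO replicate 1. Acta2, smooth muscle actin of myoid cells, was at 0.271, 132 and 153 RPM in KO, against 6.51 and 12.4 RPM in WT. The macrophage receptor Mrc1 had no read in KO replicate 1 or WT and was at 47.5 and 33.9 RPM in KO replicates 2 and 3. Lyz2, the lysozyme of macrophages, was at 8.81, 29.0 and 35.5 RPM in KO, against 3.20 and 1.52 RPM in WT. H2-Ab1, an MHC class II chain, was lower, at 63.7, 17.1 and 18.0 RPM in KO, against 103 and 95.4 RPM in WT. Red blood cell genes were highest in KO replicate 1: they summed to 486, 73.1 and 56.7 RPM in KO, against 15.9 and 6.27 RPM in WT, led by alpha globin Hba-a1 at 361, 42.3 and 35.8 RPM in KO, against 11.1 and 4.31 RPM in WT. These marker levels differed between KO replicate 1 and the other KO libraries, and their part in the other results was not tested.

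Genes of the ribosome and of respiration had medians below 0 in every KO library. Cytosolic ribosomal protein genes had a median of -1.66 over 85 members, at -0.81, -2.21 and -1.95 in KO replicates 1 to 3. Of these, 70 were below WT in all KO libraries and 2 above, and 76 fell and 2 rose without KO replicate 1. Rpl9 was at 256, 220.3 and 247 RPM in KO, against 666 and 755 RPM in WT. The 2 members above WT were Rpl10 and Rps4x: Rps4x was at 90.0, 69.8 and 95.9 RPM in KO, against 20.01 and 22.9 RPM in WT, and Rpl10 at 31.3, 55.7 and 99.4 RPM in KO, against 25.1 and 22.6 RPM in WT. Both are X-linked, but whether X linkage plays a part was not tested. Of 664 X-linked genes, 27.3% were above WT in all KO libraries and 7.83% below, where 28.9% and 14.4% of all genes were. The summed level of the ribosomal list was 28752, 11378 and 13426 RPM in KO, against 48864 and 51848 RPM in WT, with Het at 9416 RPM.

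Respiratory chain and ATP synthase genes had a median of -1.42 over 83 members, with 62 below WT in all KO libraries and 3 above. Ndufb5 of complex I, which overlaps Mrpl47, was at 289, 197 and 206 RPM in KO, against 1028 and 1179 RPM in WT. Ndufs8, also of complex I, was at 24.9, 49.7 and 61.1 RPM in KO, against 249.9 and 218 RPM in WT. Uqcrh of complex III was at 108, 86.5 and 77.9 RPM in KO, against 292 and 310.5 RPM in WT. Every KO library was below both WT libraries on these genes. Atp5a1, the alpha subunit of ATP synthase, was below WT in KO replicate 1 only, at 204, 492 and 499 RPM in KO, against 342 and 304 RPM in WT. It is therefore not among the 3 members above WT in all KO libraries. Both lists hold short transcripts, with a median of 1094 and 1001 bases for the longest transcript of a member. Proteasome subunits had a median of -0.43 over 34 members (+0.13 without KO replicate 1). Without KO replicate 1, 12 of them rose and 12 fell, where 53.1% of all genes rose and 14.7% fell.

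Long nuclear and scaffold genes had medians above 0 in every KO library. Speckle and splicing factor genes had a median of +2.48 over 20 members, +1.41, +2.92 and +2.85 in KO replicates 1 to 3, with 13 above WT in all KO libraries and none below. Srrm1, a splicing coactivator, was at 180.1, 149 and 146 RPM in KO, against 11.01 and 14.1 RPM in WT. Son, a core protein of speckles, was at 184, 159.5 and 163 RPM in KO, against 19.6 and 26.4 RPM in WT. A list of long chromatin and scaffold genes, chosen for their length, had a median of +2.56 over 25 members, 22 of them higher without overlap and 1 lower. Prrc2a, an RNA-binding protein, was at 147, 114 and 113 RPM in KO, against 10.4 and 8.87 RPM in WT, and Huwe1, a ubiquitin ligase, at 36.5, 58.7 and 64.1 RPM in KO, against 4.18 and 5.13 RPM in WT. The nuclear RNA Neat1 was at 11.3, 26.05 and 18.9 RPM in KO, against 0.434 and 3.10 RPM in WT. Miat was an exception among nuclear RNAs, at 18.8, 4.47 and 4.24 RPM in KO, against 17.4 and 23.4 RPM in WT.

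Genes of the piRNA pathway, which silences transposons in germ cells, had a median of +1.72 over 18 members, but +0.02 in KO replicate 1. Piwil1 was at 38.5, 432 and 389 RPM in KO, against 20.1 and 26.5 RPM in WT, and Tdrd6 at 232, 473 and 409 RPM in KO, against 69.1 and 90.4 RPM in WT. Gtsf1 and Mael, of the same pathway, went the other way in every KO library. Gtsf1 was at 1467, 356 and 371 RPM in KO, against 2327 and 2530.2 RPM in WT. Mael was at 3550, 2237 and 2143 RPM in KO, against 5036 and 5318 RPM in WT. Tdrkh stood at -0.74, but its groups overlapped. Sperm axoneme genes had a median of +1.08 over 29 members, with 19 higher and 5 lower without overlap. The dynein heavy chain Dnah3 was at 75.3, 62.4 and 47.8 RPM in KO, against 8.35 and 9.76 RPM in WT, and Cfap54, of the central apparatus, at 166, 109.6 and 88.0 RPM in KO, against 22.7 and 18.1 RPM in WT.

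Proteases and their inhibitors, named in the series title, had values in both directions. The 26 serine proteases of testis had a median of -0.19 (+0.26 without KO replicate 1), with 7 higher and 6 lower without overlap. Beside Prss58, the lower ones included Prss45, at 38.9, 50.8 and 54.5 RPM in KO, against 163 and 161 RPM in WT, and Prss39, at 448, 154 and 138 RPM in KO, against 823 and 682 RPM in WT. Higher ones included Acr, acrosin of the acrosome, at 326, 165 and 149.9 RPM in KO, against 80.5 and 90.8 RPM in WT, and Htra1, a secreted protease, at 20.7, 20.2 and 28.2 RPM in KO, against 0.976 and 1.52 RPM in WT. Without KO replicate 1, 10 rose and 11 fell, where 53.1% of all genes rose and 14.7% fell. For the 27 tested ADAM proteases the median was +1.10, with 0, +1.78 and +1.66 in KO replicates 1 to 3. Cathepsins with matrix metalloproteases had +1.86 over 17, with +0.19, +2.68 and +3.06. Of those 17, 6 were above WT in all KO libraries. The lysosomal Ctsd was at 22.2, 121 and 118 RPM in KO, against 5.64 and 6.59 RPM in WT, and Ctsb at 7.73, 93.8 and 97.1 RPM in KO, against 3.04 and 1.77 RPM in WT.

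Of 25 WFDC and Kunitz-type inhibitor genes, 13 passed the filter, with a median of -0.42 that turned to +0.13 without KO replicate 1, +0.43 without WT replicate 2 and +0.71 over members of mean 5 RPM or more, 1 higher and 4 lower without overlap. Wfdc3 was at 79.7, 29.3 and 32.6 RPM in KO, against 134 and 143 RPM in WT, with the KO libraries in the same order as for Wfdc15a, and a difference, KO minus WT, of -1.69 (SE 0.51, limma adjusted p = 0.124). Wfdc1, a secreted growth inhibitor, was at 0.814, 53.7 and 68.8 RPM in KO, against 5.48 and 7.48 RPM in WT. The neighbours Wfdc9 and Wfdc10, whose spans overlap, were at 0.136 and 1.36 RPM in KO replicate 1 and 8.63 to 21.9 RPM in the other KO libraries, against 9.57 to 34.1 RPM in WT. Wfdc6a had no read in KO replicate 1 and was at 12.9 and 9.62 RPM in the others, against 1.08 and 3.04 RPM in WT. Wfdc5, Wfdc6b and Wfdc17 stayed at 5.19 RPM or less in these 5 libraries, and Wfdc5 was below WT in every KO library, at no read, 0.392 and 0.633 RPM in KO, against 1.52 and 2.53 RPM in WT. Wfdc15b, Wfdc2, Wfdc8, Wfdc11, Wfdc12, Wfdc13, Wfdc16, Wfdc18 and Wfdc21 did not pass the filter. Spint2, a membrane Kunitz inhibitor, was at 85.8, 172 and 155 RPM in KO, against 43.2 and 47.6 RPM in WT.

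Over 25 serpins, cystatins and further inhibitors the median was +1.41, but -0.30 in KO replicate 1. Spink2, an inhibitor of acrosomal proteases, was at 945, 305 and 349.8 RPM in KO, against 2171 and 1976 RPM in WT, and Cst8, a cystatin of the male tract, at 22.0, 17.9 and 11.1 RPM in KO, against 133 and 68.3 RPM in WT. Serpinf1, a secreted serpin, was higher, at 10.8, 10.9 and 14.9 RPM in KO, against 0.434 and 0.570 RPM in WT. Without KO replicate 1, 16 rose and 5 fell.

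Immune lists differed between KO replicate 1 and the other KO libraries. Interferon-stimulated genes had a median of +1.05 over 17 tested members of 34, with -0.14, +1.81 and +1.504 in KO replicates 1 to 3, and 2 higher and 1 lower without overlap. Their median turned to -0.59 without KO replicate 2 and -0.55 without KO replicate 3. Their summed level was 33.4, 163 and 169 RPM in KO, against 65.2 and 84.5 RPM in WT. Isg15, an early interferon target, had no read in 4 of the 5 libraries, and Stat2, of the interferon response, was at 0.542, 11.2 and 16.0 RPM in KO, against 0.108 RPM and no read in WT. Cytokines and chemokines had a median of +0.66 over 16 members, the same as all genes to 2 decimals, which turned to -0.29 with centred libraries and -0.05 without KO replicate 3, and Tnf had no read in any library. Complement and clotting genes had a median of +1.55 over 20 members, and Thbd, thrombomodulin, was at 10.8, 9.42 and 16.4 RPM in KO, against 0.108 RPM and no read in WT. MHC class I genes had a median of +0.92 over 14 members (-0.03 with centred libraries), and B2m, its light chain, was at 0.814, 35.3 and 36.5 RPM in KO, against 8.08 and 6.14 RPM in WT. Of 29 beta-defensin genes 5 were tested, with a median of -1.36. Defb36 was at 7.86, 10.9 and 15.6 RPM in KO, against 31.9 and 28.1 RPM in WT.

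Immediate-early genes, which answer stimulation or tissue handling within minutes, had a median of +1.93 over 13 tested members. They stood at +1.68, +1.72 and +1.83 in KO replicates 1 to 3, where all genes stood at -0.13, +1.02 and +1.01. KO replicate 1 was thus the farthest above its all-gene median. Of the 13, 10 were above WT in all KO libraries and none below, and 11 rose without KO replicate 1. Nr4a1, an orphan nuclear receptor, was at 31.6, 15.9 and 11.8 RPM in KO, against 2.71 and 0.887 RPM in WT. Fos was at 16.3, 0.942 and 0.190 RPM in KO, against 0.488 RPM and no read in WT, and did not pass the filter. The summed level was 174.5, 88.1 and 78.6 RPM in KO, against 15.1 and 12.8 RPM in WT, with Het at 86.8 RPM. Heat-shock genes had a median of +1.31 over 15 members and p53 targets with cell death genes stood +0.35 above the median of all genes over 17, both below 0 in KO replicate 1. Cdkn1a, a p53 target that stops the cell cycle, was at 29.3, 4.55 and 9.50 RPM in KO, against 3.04 and 1.58 RPM in WT. Sterol synthesis genes had a median of +1.13 over 22 members, with -0.19, +1.94 and +1.90 in KO replicates 1 to 3. The list of glycolysis genes, chosen for germ-cell forms, had a median of -0.19 over 13 members, and mesothelial genes had -0.51 over 2. Replication-dependent histones had -0.10 over the 16 that passed the filter, and many others listed had few or no reads.

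The differences ran with transcript length. Genes were cut into 5 equal classes by their longest annotated transcript, for 17601 genes (97.8% of those tested). The median KO minus WT was -0.29 in the shortest class (27 to 1358 bases), then +0.39, +0.79 and +1.07, and +1.27 in the longest class (4901 to 123179 bases). Genes above WT in all KO libraries made up 13.2% of the shortest class and 44.0% of the longest, and genes below WT 30.6% and 6.39%. The same order held in each KO library: KO replicate 1 ran from -0.34 in the shortest to +0.23 in the longest class, KO replicate 2 from -0.30 to +1.78 and KO replicate 3 from -0.34 to +1.75. Among genes in the highest of 3 classes of mean level, the medians were -0.87 in the shortest class and +1.40 in the longest. In the middle class of mean level they were -0.10 and +1.63. In the lowest they were +0.01 and +0.83, and the second longest class was higher, at +0.97. KO replicate 1 stayed below 0 in every length class of that lowest class, at -0.54 in the shortest and -0.38 in the longest. The mean length of transcript per read was 2964, 3675 and 3618 bases in KO replicates 1 to 3, against 2507 and 2542 bases in WT and 3742 bases in Het. How far length carries the gene list results was not tested.

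**Figure D5:**
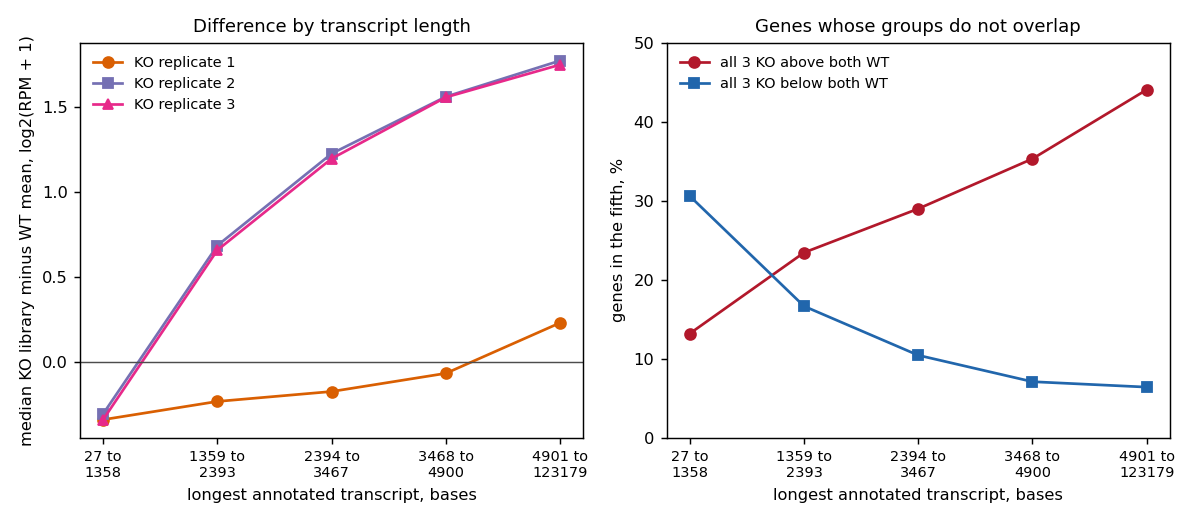
Left, median over the genes of each length class of 1 KO testis library minus the WT mean, on log2(RPM + 1). Right, percent of genes in each class with all 3 KO libraries above or below both WT libraries. Lines join classes of 17601 genes by longest annotated transcript, and the shares above WT run from 13.2% to 44.0%.

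Exon number, gene type and chromosome gave further cuts. Genes with over 20 exons had a median of +1.58, against +0.28 for genes of 2 to 5 exons. Protein-coding genes had a median of +0.80 over 14816 and lincRNAs -0.31 over 1373, with 30.4% of lincRNAs below WT in all KO libraries. Every autosome had a median between +0.51 and +0.72, and the X chromosome stood at +1.25 over 664 genes. The X median was -0.09 in KO replicate 1 and +1.79 and +1.91 in KO replicates 2 and 3, where all genes stood at -0.13, +1.02 and +1.01.

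Of 82 listed genes within 1 Mb of Wfdc15a, 48 were tested, with 12 above WT in all KO libraries and 9 below, where 28.9% and 14.4% of all genes were. Their median of +0.34 lay below the +0.66 of all genes, was -0.45 in KO replicate 1, and turned to -0.61 with centred libraries and -0.41 with quantile normalization. Nothing particular to this window is read from these values. The genes given next were chosen after their values were seen. Sdc4, a heparan sulfate proteoglycan, was at 2.17, 67.6 and 70.4 RPM in KO, against 0.0542 and 1.14 RPM in WT. Pltp, a phospholipid transfer protein, was at 5.83, 39.2 and 36.2 RPM in KO, against 1.19 and 0.0634 RPM in WT. Trp53tg5 was lower, at 7.9997, 13.2 and 4.94 RPM in KO, against 105 and 40.5 RPM in WT. Pigt, of the GPI anchor transamidase, was higher, at 45.6, 48.6 and 51.5 RPM in KO, against 11.3 and 9.31 RPM in WT. The span of Pltp overlaps Ctsa and that of Trp53tg5 overlaps Sys1.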

How the data were processed

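Whole-testis libraries of KO (3) and WT (2) mice were compared. The deposited values are log2 RPM per gene, made by the authors. The submitters' processing notes name HISAT2 2.1.0, Trim Galore 0.6.6, FastQC 0.11.8 and the build mm10. For the read counter and the annotation, nothing was given in the sources used here. The lowest value of each column stood for no read, at the level of 0.9 read, and was set to 0. Dividing by the level of 1 read gave whole numbers within 0.01 for 99.704% to 99.995% of the values in each testis library, so depth was recovered, at 7375270 to 18438704 reads. The 13 mitochondrial genes listed had no read. There were 0 other columns of per-sample values.

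Values were analysed as log2(RPM + 1), so that fold changes of low genes are understated. A gene was tested when 2 or more of the 5 libraries held it at 1 RPM or more. Tests were made with limma 3.58.1 in R 4.3.3 (trended empirical Bayes, Benjamini-Hochberg adjustment over all genes, threshold 0.05), and the procedure was tested on simulated data. The simulated libraries all had the same spread. None stood apart as KO replicate 1 does, so the simulation does not cover that setting. Alternatives changed the pseudocount, the filter, the scaling, library weights, the model, the libraries in the fit and the threshold. Voom on the recovered reads was one of them. Transcript lengths and exons came from GENCODE M21, which matched 29497 genes (96.78%), and promoters from RefSeq on GRCm38.p6.

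The genes and lists were chosen with earlier results of these data known. Named were the 10 genes with the widest gap between the groups in each direction, the 6 and 4 genes per direction with the widest disagreement between KO libraries, the 5 most abundant genes, the WFDC genes, and in each list the first member and the 5 members of lowest unadjusted p. Some genes that this rule picks are not reported here. The numbers of the replicates did not pair the libraries: the deviations of same-numbered libraries from their group means correlated at 0.021 and 0.005.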

Additional observations from a re-analysis of the deposited data

How the results depend on the processing

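The count of 0 genes past the threshold became 208 with no filter, 535 with a mean of at least 5 RPM, 12496 with library quality weights, 4153 with all 13 libraries, 159 with the replicate block, 3819 and 3957 with KO replicates 2 and 3 alone, and 1596 at an adjusted p under 0.1. Leaving out 1 library gave 0 to 12042, the highest without KO replicate 1. Wfdc15a was -2.35 with quality weights, -1.85 with all 13 libraries, -2.48 and -2.22 with KO replicates 2 and 3 alone, each past the threshold, and -2.35 to -1.53 with 1 library left out. The replicate numbers did not pair the libraries. Genes above WT without overlap numbered 2806 with centred libraries, 11923 and 11907 with KO replicates 2 and 3 alone, and 5098 to 11238 with 1 library left out, the highest without KO replicate 1. Genes below WT numbered 5295 with centred libraries, 4336 with quantile normalization, and 7965, 4282 and 4352 with KO replicates 1, 2 and 3 alone. The median of all genes was -0.29 with centred libraries and -0.13 with KO replicate 1 alone. Of 503 list medians under alternatives, 103 moved by more than the SD of the KO library medians.

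With KO replicate 1 alone, KO minus WT was on the other side of 0, or at 0, for Acta2 (-2.98), Amh (0.00), Atp5a1 (-0.66), B2m (-2.15), Clu (-2.38), Ctsl (-2.18), Frzb (-0.07), Hdac6 (-1.50), Kit (-0.61), Mrc1 (0.00), Mt1 (0.04), Sox9 (-0.48), Uba1y (0.00), Wfdc1 (-2.03), Wfdc17 (-0.74) and Wfdc6a (-1.54). With KO replicate 2 alone it was so for Dcaf13 (0.76), Dync2li1 (0.69), Trim30a (-1.42) and Trim30c (-0.74), and with KO replicate 3 alone for Dcaf13 (0.56), Dync2li1 (0.62), Med6 (0.27), Tesk1 (-0.09), Trim30a (-1.32), Trim30c (-0.45) and Wfdc6b (0.43). With quality weights it was so for Dcaf13 (0.62), Dync2li1 (0.62), Med6 (0.02), Trim30a (-1.32), Trim30c (-0.56) and Wfdc6b (0.09). Leaving out 1 library turned Dcaf13 (-2.41 to 0.66), Dync2li1 (-2.31 to 0.66), Med6 (-2.84 to 0.08), Trim30a (as low as -1.37), Wfdc6b (0.13 without KO replicate 1 and 0.70 without WT replicate 2), and Atp5a1 (-0.01 and -0.02). Centring turned Atp5a1 (-0.76), B2m (-0.20), Trim30a (-0.09), Wfdc17 (-0.75) and Wfdc6a (-0.09), the replicate block Atp5a1 (-0.02), quantile normalization Wfdc17 (-0.32) and a pseudocount of 0.1 RPM and voom Wfdc17 (-0.19 and -0.11). Ldhc, the most abundant gene in every library, is equal in all of them (0.00) by the construction of quantile normalization. The cause of the other changes was not tested. Depth limits genes near the level of 3 reads, most of all in KO replicate 1.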
